A study of Mus musculus with 50 samples.

Results

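The TGF-beta genes described here are the ligands Tgfb1, Tgfb2 and Tgfb3, the receptors Tgfbr1 and Tgfbr2, the inhibitor Smad7 and the response genes Tgfbi, Ccn1 and Ccn2. They are 9 of the 37469 gene identifiers in the table of read counts, chosen by symbol, and all 9 passed the filter on low counts that left 19327 genes for testing. RNA was sequenced from 48 whole p53/MCA sarcomas of 129/SvJae mice. Primary tumors arose in Trp53 fl/fl mice, which were 6 to 10 weeks old when Adeno-Cre, which deletes Trp53 locally, and the carcinogen 3-methylcholanthrene (MCA) were injected into the gastrocnemius. Transplant tumors grew in the same muscle of syngeneic mice from cells of 1 line, 402230, made from an untreated primary p53/MCA sarcoma, so that all of them share 1 tumor of origin. Both models received the anti-PD-1 antibody muDX400 or an isotype antibody, with or without 20 Gy of radiation, and RNA came from tumors taken 3 days later. There were 4 transplant and 8 primary tumors per treatment, which makes 16 transplants and 32 primary tumors over the 4 treatments. Loss of Trp53 is common to all 8 groups, and Trp53 reads remained in every tumor, at 20.2 to 60.7 CPM (read counts scaled to the size of each library), in tissue that also holds host cells without the deletion. The study asked how sarcomas that grew up in their host and transplanted ones differ in their response to radiation with anti-PD-1.

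TGF-beta ligands are secreted in a latent form bound to the matrix or to cell surfaces and signal after release. The active ligand binds the type II receptor, which recruits and phosphorylates the type I receptor, and the complex phosphorylates SMAD2 and SMAD3, which enter the nucleus with SMAD4 and change transcription. In tumors the pathway is known for driving matrix production by fibroblasts, for restraining T cells and for limiting their entry. Ccn1 and Ccn2, which encode secreted matricellular proteins, are also targets of the YAP and TAZ coactivators.

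Of the 9 genes, 6 had an entry in the RefSeq promoter table used here, and 3 windows are shown: those of Tgfb1 and Tgfbr2, a ligand and a receptor that differed between the tumor models, and that of Ccn1, the close relative of Ccn2. Tgfbi also differed between the models, but 63 bases of its window lie inside the GENCODE gene, and it is not shown. Each gives the 250 bases before the annotated start, 5′ to 3′ on the gene's own strand, on GRCm38.p6. Capitals mark matches on either strand to CAGAC, a core of the SMAD-binding element, or to CATTCC, a core of the site bound by TEAD factors, the partners of YAP and TAZ, and no 2 matches overlapped.
Tgfb1 (chr7:25686752-25687001, + strand): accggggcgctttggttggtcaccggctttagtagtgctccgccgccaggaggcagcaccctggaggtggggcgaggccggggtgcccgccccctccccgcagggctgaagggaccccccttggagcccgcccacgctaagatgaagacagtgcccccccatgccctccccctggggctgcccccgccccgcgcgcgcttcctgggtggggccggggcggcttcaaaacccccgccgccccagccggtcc
Tgfbr2 (chr9:116175364-116175613, - strand): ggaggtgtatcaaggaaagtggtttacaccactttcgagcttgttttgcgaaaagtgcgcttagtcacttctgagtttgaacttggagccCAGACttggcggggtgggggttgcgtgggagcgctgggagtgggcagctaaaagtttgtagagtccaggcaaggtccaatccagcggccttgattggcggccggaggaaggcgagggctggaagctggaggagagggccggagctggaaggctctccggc
Ccn1 (chr3:145649986-145650235, - strand): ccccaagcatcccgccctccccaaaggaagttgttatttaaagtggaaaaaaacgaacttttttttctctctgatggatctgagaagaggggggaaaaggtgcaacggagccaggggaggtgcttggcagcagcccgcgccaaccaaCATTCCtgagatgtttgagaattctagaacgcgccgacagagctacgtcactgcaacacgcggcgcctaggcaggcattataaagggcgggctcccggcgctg
The Tgfbr2 window held 1 CAGAC match 160 bases before the start, and the Ccn1 window held 1 CATTCC match. The Tgfb1 window held neither. Of the windows not shown, those of Tgfb2 and Tgfbi each held 2 CAGAC matches, and of the 2 windows of Tgfbr1, 1 held 1 CAGAC match. CAGAC or its reverse complement occurred in 42.2% of 32851 promoter windows of that length and CATTCC in 12.6%, so a match in 1 window sets no gene apart.

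On GRCm38 (mm10), with GENCODE M21 gene models, Tgfb1 lies at chr7:25687002-25705077 and Tgfb2 at chr1:186622792-186705989. Tgfb3 lies at chr12:86056745-86079041, Tgfbr1 at chr4:47353222-47414931, Tgfbr2 at chr9:116084293-116175360 and Smad7 at chr18:75367529-75395935. Tgfbi lies at chr13:56609523-56639562, Ccn1 at chr3:145646976-145649981 and Ccn2 at chr10:24595442-24598683. The values are sums over the exons of each gene. Genes on the opposite strand overlap exons of Tgfb2, Tgfb3 and Ccn2, and whether the counting used strand was not stated. The counts assigned to those genes were low, at most 290 in any tumor for Gm48008 beside Tgfb3 and at most 180 for Gm15270 beside Ccn2.

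Besides the tumors, 2 single libraries carried the number 402230, one labelled as the parental primary tumor (48457411 counts) and one labelled as the cell line (41226531 counts), neither with a replicate. Their marker genes go against these labels. In the library labelled parental tumor, 5 of 6 macrophage genes, 6 of 6 endothelial genes and 6 of 6 T cell genes were under 1 CPM, and the macrophage list summed to 3.68 CPM. Its reads were 0 for Adgre1, a macrophage receptor, and for all 6 T cell genes. The library labelled cell line held 60.2 CPM of Adgre1, 104.01 CPM of Pecam1, an endothelial adhesion molecule, and 976 CPM of the macrophage list, with 0 macrophage and 0 endothelial genes under 1 CPM. Of its 6 T cell genes, however, 5 were also under 1 CPM. They summed to 11.8 CPM, against 13.1 CPM in the lowest untreated primary tumor. The lowest untreated primary tumor held 1445 CPM of the macrophage list. The libraries are therefore named only by their labels, and no direction is drawn from tumor to line. Their values were scaled over all 50 libraries, and intervals, exact Poisson at 95%, cover counting error only.

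All 9 genes were detected in every tumor, with at least 171 reads. Scaled to exon length, as CPM per kilobase, the median level over the 48 tumors was 272 for Tgfbi, 60.2 for Ccn1, 57.8 for Ccn2, 50.2 for Tgfbr2, 30.7 for Tgfb3, 25.8 for Tgfb1, 14.3 for Tgfbr1, 8.24 for Smad7 and 1.86 for Tgfb2. The neighbours Ccn1, Ccn2 and Tgfbr2 in that order, and likewise Tgfb3 and Tgfb1, had ranges over the tumors that overlapped each other. Ccn2 spanned the widest range of the 9, 5.93 on the log2 CPM scale, and Tgfb1 the narrowest, 1.4. The libraries held 31810461 to 54008259 counts, so that counting error is small beside the differences between tumors.

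The first comparison was between the tumor models. Ccn2, which encodes connective tissue growth factor, was the gene with the largest difference: it was 6.57-fold lower in transplants than in primary tumors, averaged over the 4 treatments. Tgfbr2, the type II receptor that binds ligand, was 1.46-fold lower. Tgfb1, the ligand made by many immune and stromal cells, and Tgfbi, a matrix protein named for its induction by TGF-beta, were 1.20-fold and 1.36-fold higher in transplants. These 4 of the 9 genes passed the threshold, an adjusted p under 0.05 in edgeR's quasi-likelihood test with Benjamini-Hochberg adjustment over all genes tested, where 34.8% of all genes passed it. The share of the 9 was therefore close to that of genes in general. The median log2 fold change was -0.17 over the 9 genes and -0.0025 over all genes. In whole tumors, fewer cells of a type and less RNA per cell cannot be told apart. All transplants came from the same line, 402230, so the tumor model and that line's tumor of origin cannot be told apart either. On the transplant side, errors and p-values cover variation between tumors of that line, and variation between lines was not tested.

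**Figure D1:**
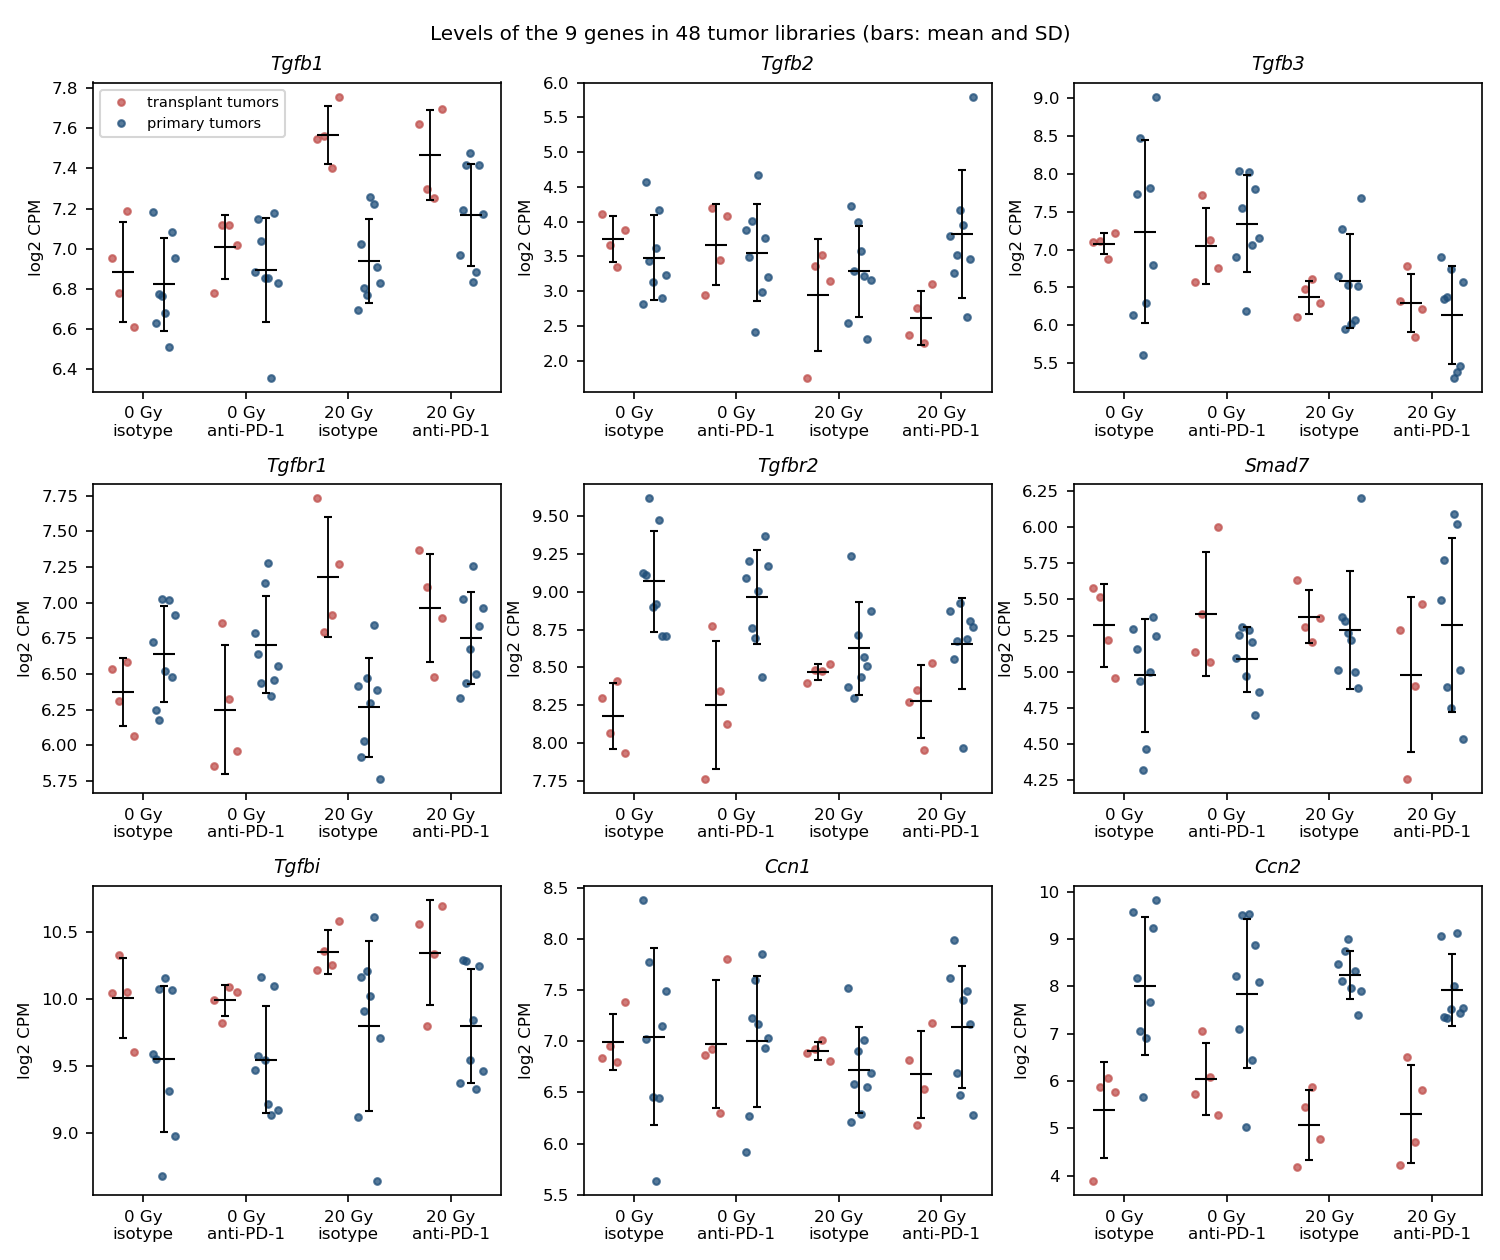
Level of each of the 9 genes, as log2 CPM, in each of 48 tumors by treatment, with transplants in red and primary tumors in blue (bars, mean and SD, 4 transplants or 8 primary tumors a group). Ccn2 lay lower in transplants under every treatment, and Tgfb1 was highest in irradiated transplants.

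Ccn2 was measured at 14.8, 58.1, 66.4 and 54.3 CPM in the 4 untreated transplants (isotype antibody without radiation). In the 8 untreated primary tumors it ran from 50.4 through a median of 247 to 906 CPM. The groups overlapped: 1 transplant lay below every primary tumor, and the other transplants lay within the range of the primary tumors, below their median. After anti-PD-1 alone the transplants held 52.6, 133.7, 67.4 and 39.1 CPM and the primary tumors 32.6 to 734 CPM, with a median of 284. With 20 Gy and isotype the transplants held 18.1, 43.7, 58.4 and 27.2 CPM, and the primary tumors 169 to 512 CPM, with a median of 297. With 20 Gy and anti-PD-1 they held 18.7, 90.8, 26.1 and 55.7 CPM, and the primary tumors 161 to 562 CPM, with a median of 186. The irradiated groups did not overlap under either antibody, whereas both unirradiated pairs did. All 16 transplants lay below the median of the 32 primary tumors, 264 CPM.

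For transplants of line 402230 against primary tumors, the fitted log2 fold change of Ccn2 was -2.72 ± 0.30 (SE; adjusted p = 6.34e-08, edgeR). It was called under each treatment, at -2.98 ± 0.61 untreated (adjusted p = 0.00474), -2.23 ± 0.60 after anti-PD-1 (adjusted p = 0.0344), -3.11 ± 0.61 after 20 Gy (adjusted p = 0.00657) and -2.54 ± 0.61 after both (adjusted p = 0.0230), all from edgeR. The call after anti-PD-1 alone was lost without any of transplant replicates 1, 3 and 4 or primary replicates 3 and 5 of that group, with an adjusted p of up to 0.130. That after both treatments was lost without transplant replicate 1 or 3, with an adjusted p of up to 0.121. Its close relative Ccn1, also known as Cyr61, was measured at 111.1 to 167 CPM in untreated transplants and 49.6 to 333 CPM in untreated primary tumors, and its averaged log2 fold change was -0.17 (95% interval -0.51 to 0.17; adjusted p = 0.486, edgeR). The levels of Ccn1 overlapped under every treatment.

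Tgfbr2 was measured at 315, 269, 341 and 245 CPM in untreated transplants and at 418 to 785 CPM, with a median of 518, in untreated primary tumors. Every untreated transplant lay below every untreated primary tumor. After anti-PD-1 alone 3 of 4 transplants (217, 438, 325 and 279 CPM) lay below all 8 primary tumors (347 to 661 CPM). The levels overlapped after 20 Gy with isotype, at 338, 358, 357 and 368 CPM in transplants and 315 to 603 CPM in primary tumors. The averaged log2 fold change was -0.55 ± 0.09 (SE; adjusted p = 1.57e-05, edgeR), and all 16 transplants lay below the primary median of 442 CPM. By treatment, it was called untreated, at -0.91 ± 0.19 (adjusted p = 0.00159, edgeR), and after anti-PD-1, at -0.70 ± 0.19 (adjusted p = 0.0185, edgeR). It was not called after 20 Gy, at -0.18 (95% interval -0.55 to 0.18), or after both, at -0.39 (95% interval -0.75 to -0.03; adjusted p = 0.197, edgeR). The call after anti-PD-1 alone was lost without transplant replicate 1, 3 or 4, with an adjusted p of up to 0.155. The type I receptor Tgfbr1, which carries the signal into the cell, had an averaged log2 fold change of 0.10 (95% interval -0.10 to 0.31; adjusted p = 0.482, edgeR).

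Tgfb1 lay at 97.5 to 216 CPM in the 16 transplants, with a median of 149, and at 82.0 to 178 CPM in the 32 primary tumors, with a median of 119.3. The ranges overlapped widely, and 3 of 16 transplants lay below the primary median. The averaged log2 fold change was 0.27 ± 0.07 (SE; adjusted p = 0.00250, edgeR). Untreated tumors differed by 0.06 (95% interval -0.22 to 0.34), and tumors given 20 Gy with isotype by 0.62 ± 0.14 (SE; adjusted p = 0.00538, edgeR). Tumors given 20 Gy with anti-PD-1 differed by 0.29 (95% interval 0.01 to 0.57; adjusted p = 0.196, edgeR), which did not pass. Tgfbi lay at 775 to 1650 CPM in transplants, with a median of 1135, and at 398 to 1560 CPM in primary tumors, with a median of 765. None of the 16 transplants lay below that primary median, and the averaged log2 fold change was 0.44 ± 0.13 (SE; adjusted p = 0.00736, edgeR).

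The other genes were not called in the averaged comparison. Tgfb2, the ligand at the lowest level, had a log2 fold change of -0.40 (95% interval -0.81 to 0.02), Tgfb3 of -0.29 (95% interval -0.70 to 0.11) and Smad7, which blocks receptor signalling and is itself induced by it, of 0.08 (95% interval -0.16 to 0.33). Tgfb2 was called after 20 Gy with anti-PD-1, at -1.49 ± 0.42 (SE; adjusted p = 0.0390, edgeR), where the 4 transplants held 5.09, 6.72, 4.72 and 8.54 CPM and the 8 primary tumors 6.15 to 55.6 CPM with a median of 12.6. That call rested on single tumors: it was lost without primary replicate 8, the tumor at 55.6 CPM, or without transplant replicate 1, 2 or 3, with a log2 fold change as near 0 as -0.96 and an adjusted p of up to 0.174.

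Counted by treatment, 2 of the 9 genes passed in untreated tumors (Tgfbr2 and Ccn2), against 10.3% of all genes. After anti-PD-1 alone the same 2 genes passed, against 7.35% of all genes. Given 20 Gy with isotype, 3 passed (Tgfb1, Tgfbr1 and Ccn2), against 4.87% of all genes. Given 20 Gy with anti-PD-1, 2 passed (Tgfb2 and Ccn2), against 6.76% of all genes. For Tgfbr1 after 20 Gy with isotype the transplants held 212, 110.9, 120.5 and 154 CPM and the primary tumors 54.2 to 114.8 CPM, so that 3 of 4 transplants lay above every primary tumor. Its log2 fold change there was 0.92 ± 0.21 (SE; adjusted p = 0.00538, edgeR), and the call was lost without transplant replicate 1, the highest, at 0.75 with an adjusted p of 0.0601.

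Marker genes of cell types also moved with the tumor model. Of 6 fibroblast and mesenchyme genes, 5 were lower in transplants, with a summed level of 3940 to 19627 CPM in transplants and 6630 to 36628 CPM in primary tumors. The library labelled parental tumor held 4786 CPM of this list, with 0 of 6 genes under 1 CPM, beside 3.68 CPM of the macrophage list. The library labelled cell line held 6045 CPM of it. The list may therefore count sarcoma cells as well as fibroblasts, and these were not separated here. Of 6 smooth muscle and pericyte genes 2 were lower, at 108.3 to 399 CPM summed in transplants and 93.0 to 664 CPM in primary tumors. Of 6 T cell genes 5 were higher, at 39.6 to 201 CPM summed in transplants and 4.11 to 234 CPM in primary tumors. No gene of these 3 lists was at 0 in any tumor. Among the further lists 1 of 6 macrophage genes (Mrc1), 1 of 6 endothelial genes and 2 of 5 platelet genes tested were lower in transplants, 1 of 5 neutrophil genes and 1 of 4 adipose genes higher, and 0 of 9 skeletal muscle genes passed. Across the 48 tumors, the level of Ccn2 followed the mean log2 level of the smooth muscle and pericyte list with Pearson's r = 0.70, and Tgfbr2 followed the fibroblast list with r = 0.69. With the group means taken out these values were 0.57 and 0.45. The tumors share a scaling over all genes, and the part of these cells in the differences was not tested.

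**Figure D2:**
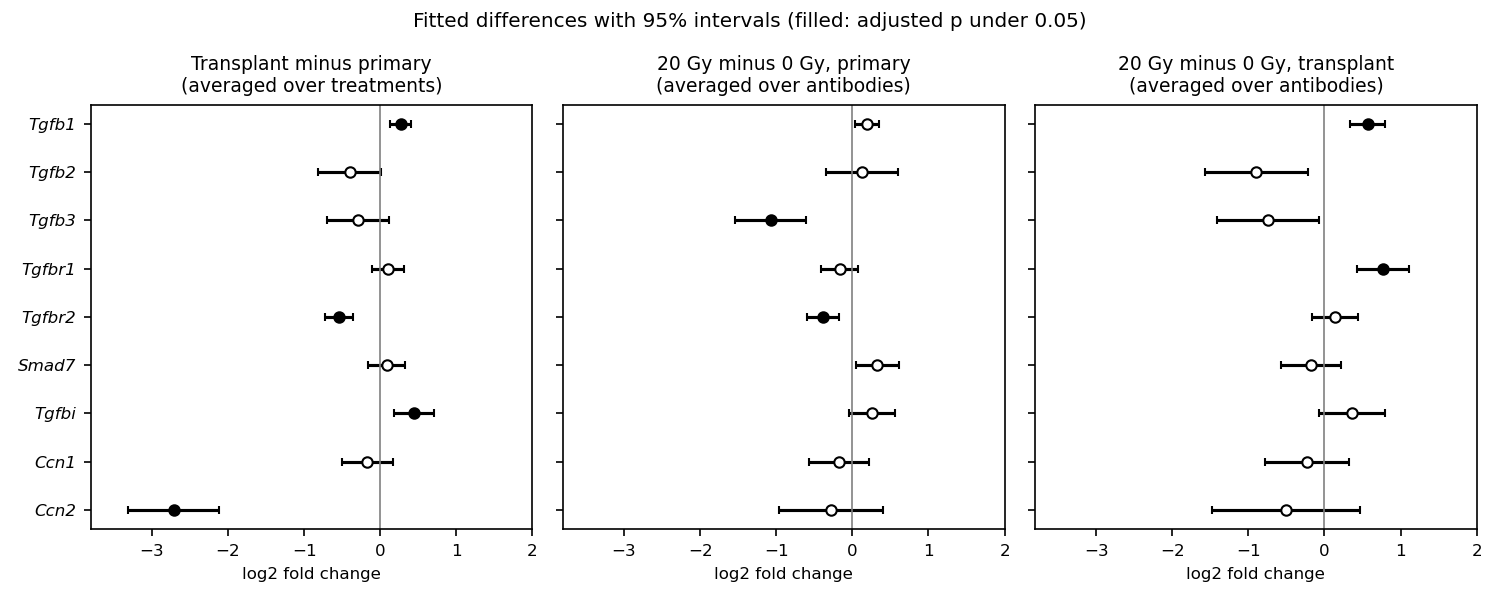
Fitted log2 fold changes (x axis) of the 9 genes with 95% intervals, for transplants minus primary tumors and for 20 Gy minus 0 Gy in each model; filled points passed an adjusted p under 0.05. Ccn2 stood at -2.72 between the models, and Tgfb3 at -1.07 after radiation of primary tumors.

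The second comparison was of 20 Gy with 0 Gy within each model, 3 days after treatment. In primary tumors Tgfb3, a ligand abundant in mesenchymal tissue, was 1.07 lower on the log2 scale, and Tgfbr2 was 0.38 lower. In transplants Tgfb1 was 0.57 higher and Tgfbr1 0.77 higher. In primary tumors 2 of 9 genes passed, against 31% of all genes, and in transplants 2 of 9 passed, against 7.23% of all genes.

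Tgfb3 was measured at 48.6 to 519 CPM in untreated primary tumors, with a median of 162, and at 61.9 to 205 CPM, with a median of 92.3, after 20 Gy with isotype. With anti-PD-1 it ran from 72.7 to 264 CPM at 0 Gy, with a median of 165, and from 39.6 to 119.3 CPM at 20 Gy, with a median of 82.1. The levels overlapped under both antibodies, and untreated primary tumors had the widest spread of any group. The log2 fold change was -1.07 ± 0.24 (SE; adjusted p = 0.000752, edgeR) averaged over antibodies, -0.95 ± 0.34 (adjusted p = 0.0458, edgeR) with isotype and -1.20 ± 0.34 (adjusted p = 0.0188, edgeR) with anti-PD-1. In transplants Tgfb3 went from 136.95, 138.4, 117.8 and 149 CPM untreated to 68.8, 89.1, 97.5 and 78.6 CPM after 20 Gy with isotype, groups that did not overlap. With anti-PD-1 it went from 95.2, 210.4, 139.7 and 108.4 CPM to 79.7, 110.2, 57.6 and 74.5 CPM. The averaged log2 fold change in transplants was -0.74 (95% interval -1.41 to -0.08; adjusted p = 0.211, edgeR), which did not pass. A fit of the transplants alone called it, at -0.73 (adjusted p = 0.0107, edgeR).

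Tgfbr2 was measured at 315 to 603 CPM, with a median of 372, in primary tumors after 20 Gy with isotype, against a median of 518 untreated, and 5 of the 8 irradiated tumors lay below all untreated ones. With anti-PD-1 its median was 529 CPM at 0 Gy and 424 CPM at 20 Gy. The log2 fold change was -0.38 ± 0.11 (SE; adjusted p = 0.00631, edgeR) averaged over antibodies and -0.45 ± 0.15 (adjusted p = 0.0335, edgeR) with isotype, and it was not called with anti-PD-1, at -0.31 (95% interval -0.61 to -0.01; adjusted p = 0.179, edgeR). In transplants it was 0.14 (95% interval -0.16 to 0.43). With isotype alone 2 of the 9 genes passed in primary tumors, Tgfb3 and Tgfbr2, against 18.3% of all genes. With anti-PD-1 only Tgfb3 passed, against 11.2% of all genes. The isotype calls were near the threshold. Without single untreated replicates 2, 3, 6 or 8, or irradiated replicates 1 or 3 to 7, the call of Tgfb3 was lost, with an adjusted p of up to 0.227. Without single untreated replicates 1, 2, 3 or 6, or irradiated replicates 1, 3, 5, 6 or 7, that of Tgfbr2 was lost, with an adjusted p of up to 0.145.

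Tgfb1 rose in transplants from 124.1, 110, 146 and 97.5 CPM untreated to 187, 189, 169 and 216 CPM after 20 Gy with isotype. With anti-PD-1 it went from 110, 138.6, 138.99 and 129.6 CPM to 197, 158, 153 and 207 CPM. Under both antibodies every irradiated transplant lay above every unirradiated one. The log2 fold change was 0.57 ± 0.12 (SE; adjusted p = 0.000954, edgeR) averaged over antibodies and 0.67 ± 0.16 (adjusted p = 0.0199, edgeR) with isotype. With anti-PD-1 it was 0.47 ± 0.16 and did not pass (adjusted p = 0.169, edgeR). The isotype call was lost without untreated transplant replicate 1, 2 or 4 or irradiated replicate 4, with an adjusted p of up to 0.15. In primary tumors the averaged log2 fold change of Tgfb1 was 0.19 (95% interval 0.03 to 0.36; adjusted p = 0.0655, edgeR), which DESeq2 called at 0.23 with an adjusted p of 0.0259. It was also called by edgeR with DESeq2 size factors (0.23, adjusted p = 0.0343) and in 8 of the edgeR fits with 1 tumor left out.

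Tgfbr1 was measured at 92.7, 79.4, 96.0 and 66.8 CPM in untreated transplants, all below the 212, 110.9, 120.5 and 154 CPM after 20 Gy with isotype. With anti-PD-1 it went from 57.9, 115.7, 80.2 and 62.1 CPM to 166, 137.8, 88.9 and 118.9 CPM, which overlapped. The log2 fold change was 0.77 ± 0.17 (SE; adjusted p = 0.00294, edgeR) averaged over antibodies. With isotype it was 0.84 ± 0.25 (adjusted p = 0.0667, edgeR) and with anti-PD-1 0.69 ± 0.25 (adjusted p = 0.175, edgeR), neither of which passed. With isotype 1 of the 9 genes passed in transplants, Tgfb1, against 1.92% of all genes. With anti-PD-1 edgeR called 0 of 9, against 0.595% of all genes. There 3 of the 9 had an unadjusted p under 0.05, against 13.1% of all genes, and DESeq2 and limma voom called 0 of 9. In primary tumors the averaged log2 fold change of Tgfbr1 was -0.16 (95% interval -0.41 to 0.08).

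The 5 other genes were not called by edgeR in the averaged comparison of 20 Gy with 0 Gy in either model, although DESeq2 called Smad7 in primary tumors (0.35, adjusted p = 0.0452), and a fit of the transplants alone called Tgfb2 (-0.87, adjusted p = 0.0352, edgeR) and Tgfb3 (-0.73, adjusted p = 0.0107, edgeR). Tgfb2 differed by -0.90 (95% interval -1.57 to -0.22; adjusted p = 0.116, edgeR) in transplants and by 0.13 (95% interval -0.35 to 0.60) in primary tumors. Smad7 differed by 0.33 (95% interval 0.05 to 0.61; adjusted p = 0.0778, edgeR) in primary tumors and by -0.18 (95% interval -0.58 to 0.22) in transplants. Tgfbi differed by 0.26 (95% interval -0.04 to 0.57) and 0.36 (95% interval -0.07 to 0.79), Ccn1 by -0.18 (95% interval -0.57 to 0.21) and -0.23 (95% interval -0.78 to 0.33), and Ccn2 by -0.29 (95% interval -0.97 to 0.40) and -0.50 (95% interval -1.47 to 0.47), in primary tumors and transplants in that order.

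The difference between the models in the response to radiation was tested as an interaction. edgeR called 0 of the 9 genes, against 0.0259% of all genes, although 5 of the 9 had an unadjusted p under 0.05, against 8.55% of all genes, and DESeq2 called 1 and limma voom 0. Tgfbr1 had the lowest adjusted p of the 9, at 0.93 (95% interval 0.51 to 1.35; adjusted p = 0.0906, edgeR). DESeq2 called it at 0.90 with an adjusted p of 0.0209. Without transplant replicate 2 of 0 Gy with anti-PD-1, the edgeR value was 1.05 and passed with an adjusted p of 0.0224. Tgfb1 stood at 0.37 (95% interval 0.10 to 0.65; adjusted p = 0.393), Tgfb2 at -1.02 (95% interval -1.85 to -0.20; adjusted p = 0.462), Tgfbr2 at 0.52 (95% interval 0.15 to 0.88; adjusted p = 0.346) and Smad7 at -0.50 (95% interval -0.99 to -0.02; adjusted p = 0.584), all from edgeR. Tgfb3 stood at 0.33 (95% interval -0.48 to 1.15), Tgfbi at 0.10 (95% interval -0.43 to 0.62), Ccn1 at -0.05 (95% interval -0.73 to 0.63) and Ccn2 at -0.22 (95% interval -1.40 to 0.97).

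Anti-PD-1 was compared with isotype over both doses. In primary tumors edgeR called 0 of the 9 genes, against 0.0155% of all genes, and 1 gene, Tgfbr1, had an unadjusted p under 0.05, against 6.89% of all genes. In transplants edgeR called 0 of 9, against 0% of all genes. There 0 of 9 had an unadjusted p under 0.05, against 1.98% of all genes (383 of 19327). Over all genes DESeq2 called 1 and limma voom 0. DESeq2 and limma voom called 0 of the 9 in either model. The largest estimates were 0.41 for Tgfb2 in primary tumors (95% interval -0.07 to 0.89) and 0.49 for Ccn2 in transplants (95% interval -0.48 to 1.46).

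Levels of cell type markers moved with radiation too. In primary tumors 5 of 5 neutrophil genes were higher after 20 Gy, with a summed level of 10.8 to 385 CPM at 0 Gy and 31.5 to 771 CPM at 20 Gy. Of 9 skeletal muscle genes 8 were higher, at 60.3 to 7282 CPM summed at 0 Gy and 14.1 to 75007 CPM at 20 Gy. The median sum went from 1642 to 1333 CPM with isotype and from 1295 to 1805 CPM with anti-PD-1. The highest irradiated tumors held 43609 and 75007 CPM. Over all genes, 16.8% were higher and 14.2% lower in this comparison. Of 6 fibroblast and mesenchyme genes 2 were lower in primary tumors (Pdgfra at -0.61 and Vim at -0.75), at 8945 to 24132 CPM summed at 0 Gy and 6630.4 to 36628 CPM at 20 Gy. Their median sum fell from 16517 to 9245 CPM with isotype and from 17997 to 9279 CPM with anti-PD-1. Of 6 smooth muscle and pericyte genes Cspg4 (-1.15) and Mcam (-0.43) were lower and Myh11 (1.49) higher, at 93.0 to 523 CPM summed at 0 Gy and 128.65 to 664 CPM at 20 Gy. Their median sum fell from 328 to 221 CPM with isotype and from 301 to 217 CPM with anti-PD-1. Of 5 platelet genes tested 1 was lower, and no T cell, endothelial or adipose gene passed in primary tumors. In transplants Kdr (0.98), an endothelial receptor, and Csf3r (1.30), a neutrophil receptor, were higher and 2 of 5 platelet genes lower. These marker genes were named after their values were seen. Of 6 macrophage genes 4 were higher in primary tumors and 3 in transplants. In transplants the summed macrophage level was 1019 to 2585 CPM at 0 Gy and 2290 to 4496 CPM at 20 Gy. No neutrophil, muscle, fibroblast, pericyte or macrophage gene was at 0 in any tumor. With the group means taken out, the neutrophil list was followed by Tgfb3 with r = -0.64 and by Tgfbr2 with r = -0.49 over the 48 tumors. Tgfb3 followed the smooth muscle and pericyte list with r = 0.49. Tgfb1 followed the endothelial list with r = 0.60, the fibroblast list with r = 0.45 and the macrophage list with r = 0.32. With the muscle list as a covariate the counts of the 9 genes called did not change in any comparison. The part of the other lists in the differences was not tested.

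The balance among the ligands was set out from levels per kilobase of exon. Tgfb3 made up 60.6 ± 5.8% (SD, n = 4) of the 3 ligands' summed level in untreated transplants, Tgfb1 35.8 ± 6.3% and Tgfb2 3.56 ± 0.73%. In untreated primary tumors the shares were 62.5 ± 18.6% (n = 8) for Tgfb3, 34.6 ± 18.1% for Tgfb1 and 2.96 ± 1.46% for Tgfb2. After 20 Gy with isotype Tgfb1 held 59.2 ± 5.6% in transplants and 44.8 ± 11.3% in primary tumors, and after 20 Gy with anti-PD-1 59.0 ± 7.4% and 54.6 ± 10.2%. After 0 Gy with anti-PD-1 it held 38.4 ± 6.1% and 32.5 ± 8.8%. In transplants every irradiated tumor had a Tgfb1 share above every unirradiated one, 48.1 to 64.0% against 29.3 to 44.2%, whereas the shares in primary tumors overlapped. These shares are descriptions and were not tested.

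**Figure D3:**
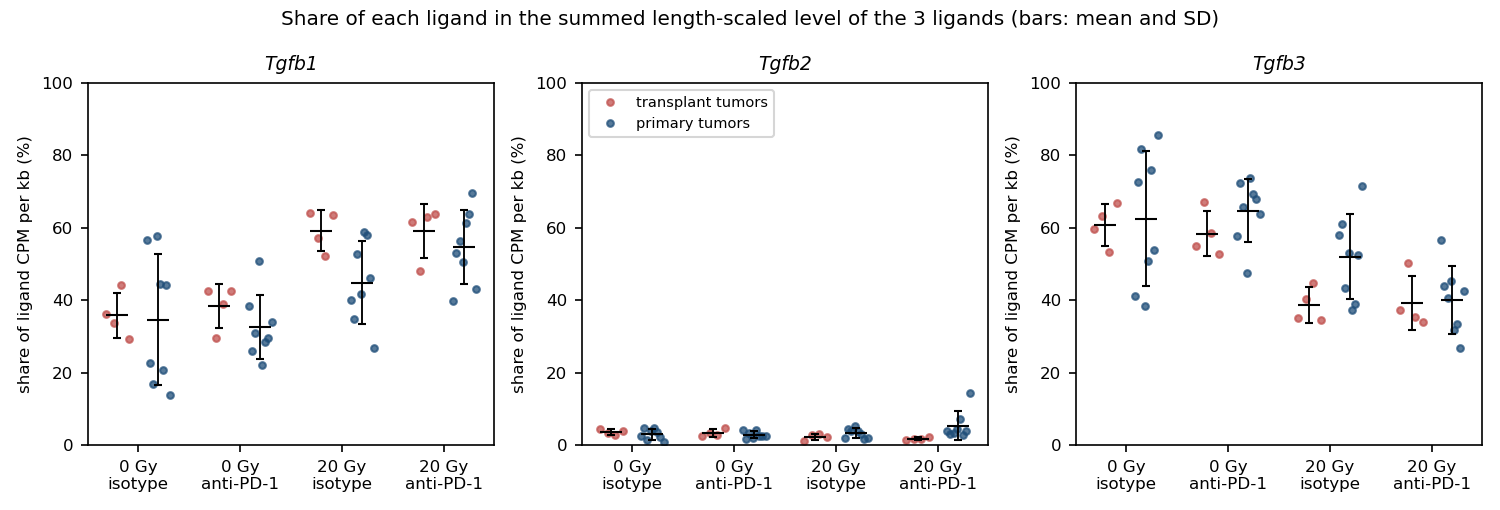
Share of each ligand (percent) in the summed CPM per kilobase of Tgfb1, Tgfb2 and Tgfb3 in each tumor, by treatment, with transplants in red and primary tumors in blue (bars, mean and SD). The Tgfb1 share averaged 35.8% in untreated transplants and 59.2% after 20 Gy with isotype.

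The rest of the pathway was followed through gene lists, which were chosen with earlier results of these data known. Over all genes, 15.7% were called higher and 19.1% lower in transplants, 16.8% higher and 14.2% lower after radiation of primary tumors, and 5.85% higher and 1.38% lower after radiation of transplants, which are the shares to set beside the counts of each list. Of 12 genes that hold TGF-beta latent or release it, 2 were higher and 4 lower in transplants. Thbs1, an activator of latent ligand, differed by 1.13 on the log2 scale (adjusted p = 0.000174, edgeR) and Nrros, which tethers latent ligand on myeloid cells, by 0.35 (adjusted p = 0.0417, edgeR). The latency proteins Ltbp4 and Ltbp2 stood at -1.05 and -1.04, and Lrrc32, which tethers latent ligand on regulatory T cells and platelets, at -0.86. After 20 Gy in primary tumors 2 were higher and 3 lower, among them Itgb6, a subunit of an integrin that releases active ligand, at 2.18 (adjusted p = 0.00461, edgeR), and Nrros at 0.94 (adjusted p = 2.1e-05, edgeR). Ltbp4 stood at -0.83, Itgav at -0.71 and Ltbp1 at -0.68. In transplants after 20 Gy, Nrros alone passed, at 1.15 (adjusted p = 0.000749, edgeR).

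Of 8 coreceptors, further receptors and SMADs, 2 were higher and 2 lower in transplants. The inhibitory Smad6 stood at 0.53 and the coreceptor Eng at 0.49, while the coreceptor Tgfbr3 stood at -0.99 (adjusted p = 1.77e-05, edgeR) and Smad3 at -0.38. After radiation of primary tumors 3 were higher, Smad6 at 0.74, the endothelial type I receptor Acvrl1 at 0.46 and Acvr1b at 0.34, and 0 lower. Of 8 further feedback regulators 2 were higher and 4 lower in transplants. Tgif1, a repressor of SMAD targets, stood at 0.40 and Skil at 0.22, while Bambi, a decoy receptor, stood at -1.37, Dcn, which binds the ligand, at -1.10 and the ubiquitin ligase Smurf2 at -0.38. After radiation of primary tumors 1 was lower, Pmepa1, at -0.57 (adjusted p = 0.00764, edgeR).

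Of 17 further genes known to respond to TGF-beta, 10 were lower in transplants and 1 was higher, with a median log2 fold change of -0.67 against -0.0025 over all genes. The lowest were the contractile genes Tagln, at -2.93, and Acta2, at -1.88, and the matricellular gene Ccn3, at -2.18. The gene that was higher was Inhba, the activin A subunit, at 1.41. After radiation of primary tumors 5 were lower and 1 higher, with Ccn3 at -1.16, Acta2 at -0.97 and Ccn4 at -0.79, and Ccn5 at 1.47. In transplants after radiation 1 of the 17 was lower, Tsc22d1 at -0.78, and of the other lists Acvrl1 at 0.82, Nuak2 at 0.74 and Atf3 at 1.43 were higher, 4 genes listed after their values were seen. Of 18 other YAP and TAZ targets, 8 were lower and 1 higher in transplants, with Ccdc80 at -0.83, Crim1 at -0.67 and Ptpn14 at -0.56, and Igfbp3 at 0.88. After radiation of primary tumors 3 were lower, Asap1 at -0.57, Fjx1 at -0.54 and Arhgef17 at -0.45, and 1 was higher, Nuak2 at 0.41. Of 8 immediate early genes 1 was higher and 2 lower in transplants, Junb at 0.39, Dusp1 at -0.73 and Jun at -0.29. After radiation of primary tumors 4 were higher, led by Atf3 at 1.22, Fos at 0.71 and Dusp1 at 0.54.

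**Figure D4:**
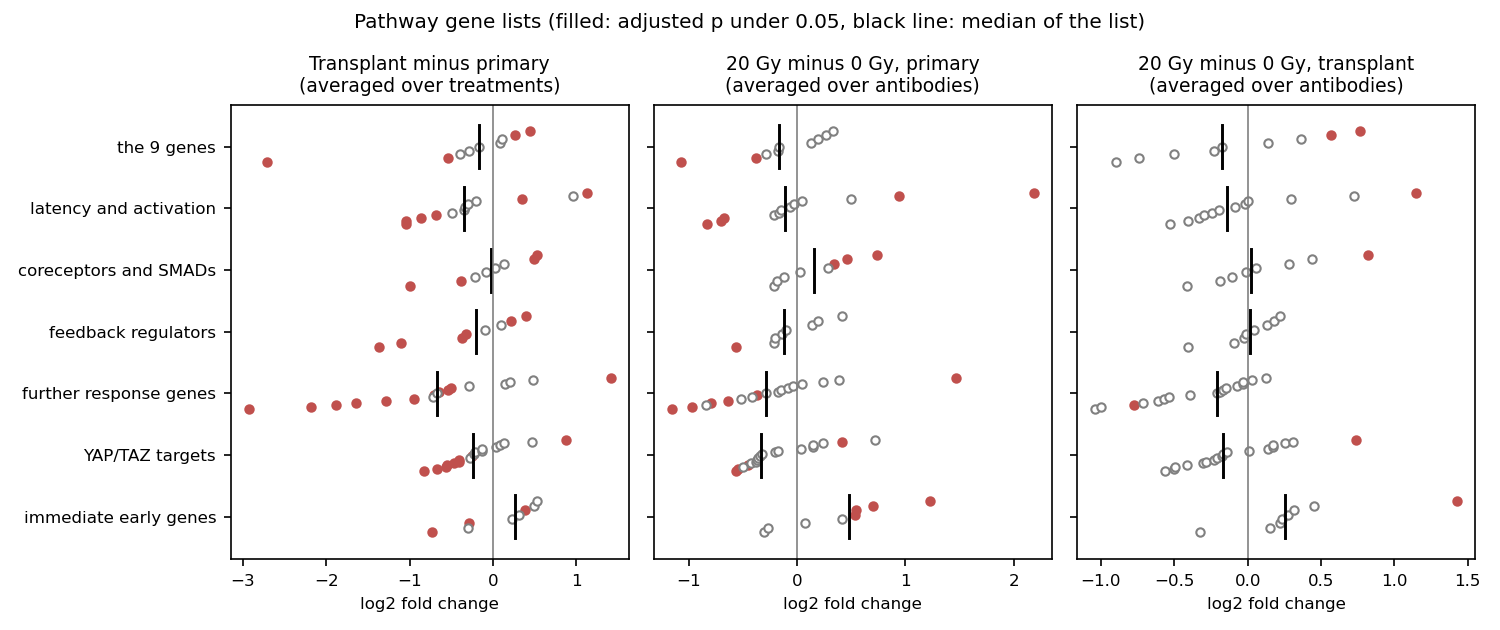
Log2 fold change (x axis) of each gene of the pathway lists (rows), for the model comparison and for radiation in each model; filled points passed an adjusted p under 0.05 and black lines are list medians. Among further response genes 10 of 17 were lower in transplants, against 19.1% of all genes. The lists were chosen with earlier results of these data known.

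The genes most like each of the 9 were taken by Pearson's r of log2 CPM over the 48 tumors, among 12124 genes with an average log2 CPM of at least 2. The tumors share groups and scaling, so each value is a description. Ccn2 was most like P4ha3 (r = 0.88), a collagen prolyl hydroxylase subunit, Col8a1 (0.84), a collagen chain, and Vgll3 (0.80), a partner of TEAD factors, and with the group means taken out these were 0.69, 0.62 and 0.49. Tgfb1 was most like Abr (0.87), Ttc7 (0.84) and Zbtb7b (0.83). Tgfbr2 was most like Ahdc1 (0.83), Arhgef7 (0.81) and Add1 (0.81). Tgfb3 was most like Col8a2 (0.76), Sertad4 (0.74) and Ldlrad4 (0.73), the last an inhibitor of TGF-beta signalling. For Smad7 the genes were Igf1r (0.72), Abcc1 (0.71) and Mafg (0.70), for Tgfbi Abr (0.65), Elmo2 (0.63) and Rsbn1 (0.61), and for Tgfb2 Klf9 (0.63), Col6a1 (0.62) and Col6a2 (0.62). For Ccn1 they were Pip5k1a (0.60), Zfp697 (0.60) and Arhgef28 (0.60), and for Tgfbr1 Casp9 (0.59), Ikbkg (0.58) and Pdgfb (0.57). With the group means taken out, r for the similar genes of members other than Ccn2 ran from 0.32 (Tgfbr1 with Pdgfb) to 0.79 (Tgfb1 with Ttc7). Within the 9, the highest r of any pair was 0.59, between Tgfb1 and Tgfbi, and Ccn1 followed Ccn2 with r = 0.16. With the group means taken out, Tgfb1 with Tgfbi stood at 0.43, and the highest pair was Smad7 with Ccn1, at 0.48.

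Tumors of a group differed more among primary tumors than among transplants for 8 of the 9 genes. The SD of log2 CPM within groups was 0.82 in primary tumors and 0.34 in transplants for Tgfb3, and 0.51 and 0.27 for Tgfbi. For Ccn2 it was 1.16 and 0.90, and for Tgfb1 0.24 and 0.20. Tgfbr1, the ninth gene, had 0.34 and 0.38. Transplants came from 1 cell line and primary tumors arose separately, and this spread was not tested. The share of all genes with a wider spread among primary tumors is not given here, so the count does not set these 9 genes apart.

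Tgfbi was measured at 35.4 CPM (33.6 to 37.2) in the library labelled parental tumor and 724 CPM (716 to 732) in that labelled cell line, against 395 to 1250 CPM in untreated tumors of both models. Tgfb2 was measured at 2.46 CPM (2.01 to 2.96) and 33.9 CPM (32.3 to 35.6), which lie below and above all untreated tumors (6.72 to 23.3 CPM). Tgfbr1 was at 48.4 CPM (46.4 to 50.5) and 194 CPM (189.9 to 198), also below and above them (66.6 to 132.5 CPM). Tgfb1 was at 45.0 CPM (43.1 to 47.1) and 46.9 CPM (44.9 to 48.9), below the lowest untreated tumor, at 93.1 CPM, in both libraries. Ccn1 was at 357 CPM (352 to 363) and 64.9 CPM (62.6 to 67.2) and Ccn2 at 108.8 CPM (105.8 to 111.9) and 43.8 CPM (42.0 to 45.8), so that both were higher in the library labelled parental tumor. Smad7 likewise was at 63.2 CPM (60.9 to 65.6) and 19.1 CPM (17.8 to 20.4). Tgfbr2 was at 169 CPM (166 to 173) and 318 CPM (313 to 323), and Tgfb3 at 46.8 CPM (44.8 to 48.8) and 115.02 CPM (111.95 to 118.2).

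**Figure D5:**
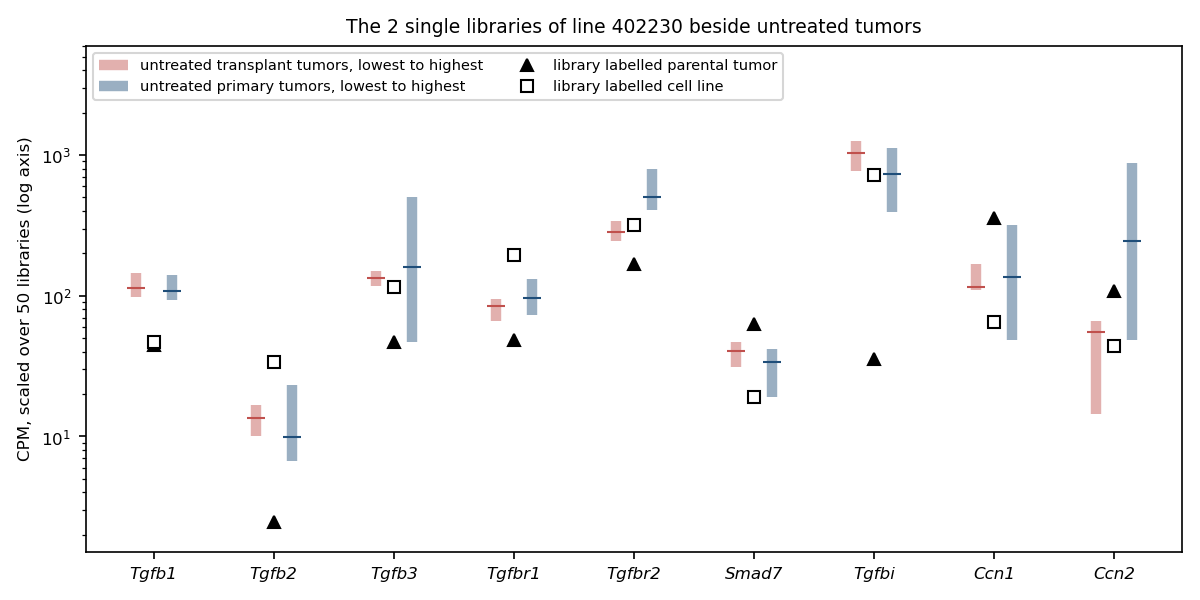
Level of the 9 genes in CPM (log axis) in the library labelled parental tumor (triangles) and the library labelled cell line (open squares), beside the range of 4 untreated transplants (red) and 8 untreated primary tumors (blue), with dashes at the medians. Tgfb1 lay below both ranges in each single library, and Tgfbi stood at 35.4 and 724 CPM.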

How the data were processed

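Oligo-dT-selected RNA of 48 tumors and 2 single libraries was sequenced with a stranded kit. According to the labels and methods, reads were trimmed by the authors (Trimmomatic 0.36), mapped to mm10 by STAR and counted per GENCODE M17 gene as HTSeq does, with a strand setting not given in the sources used here. The deposited values are raw read counts, without normalization or pooling. Of 37469 identifiers, 37408 matched GENCODE M21.

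Groups came from the labels. Counts were fitted in edgeR 4.0.16 (R 4.3.3), quasi-likelihood with robust dispersion, TMM scaling, filterByExpr and 1 mean per group over 48 tumors, for 14 comparisons. P-values are two-sided, and calls need an adjusted p under 0.05 over 19327 genes. Levels are CPM, with a prior count of 2 on the log2 scale. Totals ran from 31810461 to 54008259 counts. None of 136 pairs of libraries within a group was a repeat (chi-square per degree of freedom at least 86.7). DESeq2 1.42.0, limma 3.58.1 (voom) and the other alternatives are in the closing section.

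The members and lists were chosen with earlier results of these data known. Named were the 9 genes, the 3 most similar genes of each, list genes past the threshold (at most 3 per list and direction) and Trp53. The authors' sequence and single-cell data were not analysed here.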

Additional observations from a re-analysis of the deposited data

Results flagged for a closer look

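In 72 groups of 4 or 8 tumors, 1 for each of the 9 genes and 8 groups, 4 had a tumor far from the others by Dixon's test at the 95% level, and chance alone would flag about 1 in 20. Ccn2 was at 14.8 CPM in replicate 1 of the untreated transplants, where the next tumor held 54.3 CPM. Smad7 was at 73.4 CPM in replicate 8 of the primary tumors given 20 Gy with isotype, where the next held 41.5 CPM. Tgfb1 was at 82.0 CPM in replicate 6 of the primary tumors given 0 Gy with anti-PD-1, where the next held 113.7 CPM. Tgfbr2 was at 251 CPM in replicate 5 of the primary tumors given 20 Gy with anti-PD-1, where the next held 376 CPM.

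In the 2 single libraries, which entered no comparison, 4 levels lay above all 12 untreated tumors. In the library labelled cell line these were Tgfb2, at 33.9 CPM, and Tgfbr1, at 194 CPM. In the library labelled parental tumor they were Smad7, at 63.2 CPM, and Ccn1, at 357 CPM. The markers in these libraries go against their labels.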

How the results depend on the processing

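The labels give each tumor its own number and name no pairs, so no paired analysis was run. The replicate numbers used here follow the order of the deposited samples within each group. The 4 calls between models averaged over treatments (Tgfb1, Tgfbr2, Tgfbi and Ccn2), and the 2 in untreated tumors, held in number under every alternative that was run. A fit of only the groups compared was not run for the averaged model comparison and the interaction, which use all 8 groups. No called value changed direction. Over 66 log2 fold changes, 409 of 444 values under alternatives other than leaving out a tumor kept direction and side of the threshold, as did 1610 of 1680 with 1 tumor left out. With 4 transplants a group, calls in a single treatment often rest on 1 tumor.

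The number of the 9 genes called between models after anti-PD-1 alone, 2, was 1 without a filter on low counts, with voom or with the library labelled parental tumor added as a primary tumor (its markers go against that label), 0 with only the compared groups, and 0 to 2 with 1 tumor left out. After 20 Gy with anti-PD-1 it was likewise 1, 1, 1 and 0, and 0 to 2. After 20 Gy with isotype it was 2 to 3 with 1 tumor left out. After radiation of primary tumors it was 4 with DESeq2 and 2 to 3 with 1 tumor left out, and with isotype alone 1 with DESeq2 and with voom, 0 with DESeq2 size factors, without a filter, with the added library and with only the compared groups, and 0 to 2 with 1 tumor left out. With the added library the averaged Tgfbr2 call was lost (-0.31, adjusted p = 0.0621, edgeR) and Tgfb1 was called (0.26, adjusted p = 0.0395, edgeR). In transplants it was 4 with only the compared groups, and with isotype alone 2 with DESeq2, 0 without a filter or with the added library, 3 with only the compared groups and 0 to 2 with 1 tumor left out. For the interaction it was 1 with DESeq2 and 0 to 1 with 1 tumor left out. The causes were not tested.

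Values that changed sign were not called. Ccn2 after radiation of primary tumors was 0.16 with voom, Tgfb2 between models after anti-PD-1 alone was -0.0676 with the muscle list as a covariate and Ccn1 in the interaction was 0.0440 with the added library. With 1 tumor left out, Tgfb1 between untreated models ran from -0.038 to 0.16, Tgfb2 after anti-PD-1 alone from -0.13 to 0.27, Tgfb2 after radiation of primary tumors from -0.14 to 0.25, Ccn1 in the interaction from -0.18 to 0.13 and Ccn2 there from -0.45 to 0.0161. Over all genes edgeR called 5 for the interaction and DESeq2 69. For radiation of transplants with anti-PD-1 edgeR called 0.595% of genes, DESeq2 481 genes and voom 327, and with isotype edgeR called 372 and DESeq2 599. Between models the counts were 942 with edgeR and 1449 with DESeq2 after 20 Gy with isotype, and 1307 and 2071 after 20 Gy with anti-PD-1. For anti-PD-1 in primary tumors the counts were 3 with edgeR, 14 with DESeq2 and 0 with voom.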
